A study of Mus musculus with 12 samples.

Results

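NR-S1, a squamous cell carcinoma of the mouse, spreads to the lung, and its lung metastases were compared between animals whose primary tumour had been given carbon ions and animals left unirradiated. The carbon group had received 5 Gy of carbon ions on a hind-leg tumour of 7.5 mm, and its lung metastases were taken 2 weeks later. The unirradiated group carried the same implanted tumour, in the same strain (C3H/HeMsNrs males) and at the same time, with no radiation. In the carbon group the metastases themselves lay outside the irradiated leg, per the labels. Tumour cells were cut out of the lung by laser microdissection and their RNA was amplified linearly before labelling. Each group was 1 RNA, and the number of animals behind it is not given in the sources used here. Each metastasis RNA was hybridised on 2 arrays against RNA of an unirradiated primary tumour taken at 1 week from other mice, once in Cy5 and once in Cy3, so the comparison rested on 4 of the 12 arrays of the series. A gamma group, whose primary tumour received 8 Gy, had been measured in the same way.

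The 2 metastases never shared an array. Their difference was taken for each dye orientation as the log2 ratio of carbon-group metastasis over primary minus that of unirradiated metastasis over primary, and the 2 orientations were averaged. A positive difference means higher in the carbon group. The SD given after each difference is over the 2 orientations, so it covers array and dye error of 1 RNA per group and says nothing about animals. No p-value can be had from this design, and a gene was called when it differed at least 2-fold with the same sign in both orientations. "Rose" and "fell" below refer to such calls.

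A metastasis grows within a foreign tissue, so its RNA can come from tumour cells and from cells of the lung. The share of lung cells left in the dissected tissue was not measured. The lung has airways lined by secretory and ciliated cells, alveoli lined by surfactant-making cells, dense capillaries, an outer mesothelium and resident macrophages. Neutrophils are short-lived white cells that enter tumours and inflamed tissue. Cells short of oxygen stabilise the hypoxia-inducible factors, which switch on genes of glucose uptake, glycolysis, acid export and vessel growth.

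Of 16699 genes measured, 309 rose (1.85%) and 397 fell (2.38%) in the carbon-group metastasis, 4.23% in all. None was past 2-fold in opposite directions in the 2 orientations, and the median difference of all measured genes was -0.03 on the log2 scale, with an SD over genes of 0.49. The gene lists with the highest medians were those of ciliated cells, hypoxia and airway secretory cells, and the list with the lowest was that of neutrophils. On the 4 arrays the share of spots well above background ran from 55.6% to 66.9%, and no spot was saturated.

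The carbon-group arrays lay on another slide than the unirradiated ones, so slide and group cannot be told apart. The primary carries one label on both slides, but whether it was the same RNA preparation is not given in the sources used here, and every difference below runs through it. Its readings on the 2 slides differed with an SD over genes of 0.14 in Cy3 and 0.14 in Cy5, against 0.53 and 0.52 for the single-channel difference between the metastases in Cy5 and in Cy3. Of the same genes, 11 differed at least 2-fold in both dyes between the readings of the primary, against 787 between the metastases. Those 11 are named where they touch a result.

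**Figure D1:**
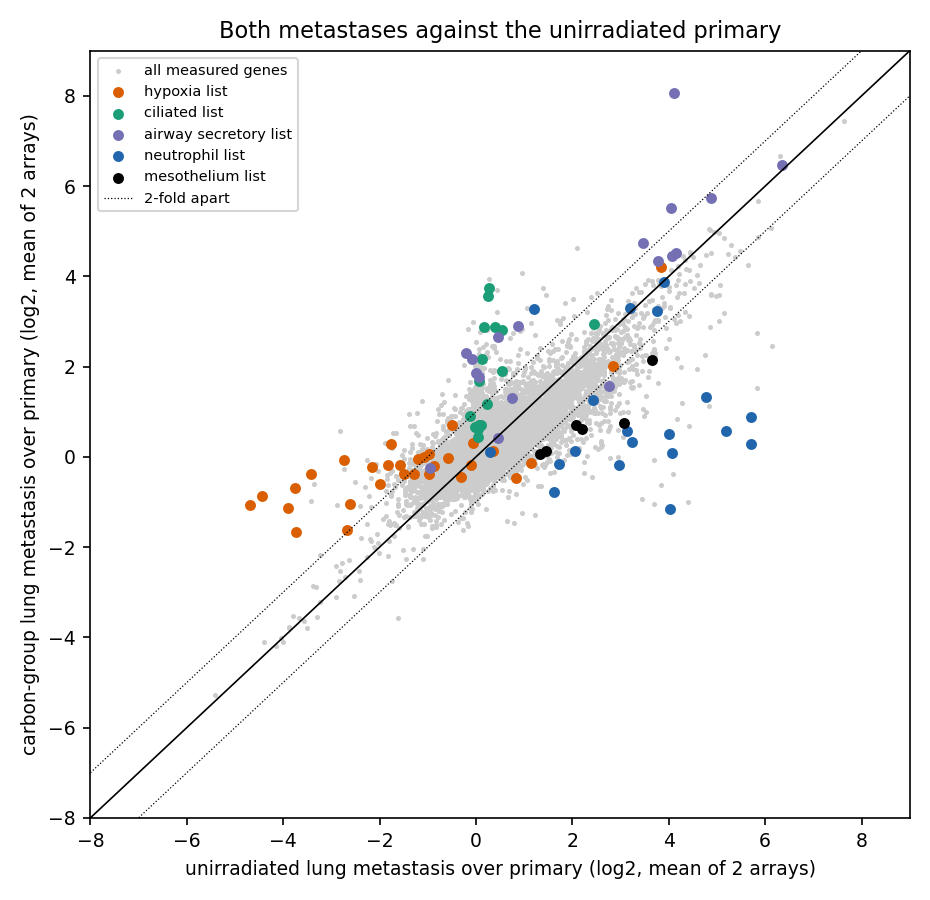
Each point is a gene, placed by its log2 ratio over the unirradiated primary in the carbon-group metastasis (vertical axis) and in the unirradiated metastasis (horizontal axis), each the mean of 2 arrays. Points above the solid diagonal are higher in the carbon group, and dotted lines mark a 2-fold difference. The hypoxia genes (orange) have a median of -0.20 on the vertical and -1.29 on the horizontal axis, and the neutrophil genes (blue) of 0.51 and 3.24.

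Genes induced by low oxygen were higher in the carbon-group metastasis. Of 31 hypoxia genes listed and measured, 17 rose, 2 fell and 12 were not called, and the median difference of the list was 1.11, against -0.03 over all genes. Adm encodes adrenomedullin, a vessel-dilating peptide. Its log2 ratios over the primary were -0.97 and -1.17 on the carbon-group arrays and -4.53 and -4.86 on the unirradiated arrays. All 4 values lay below the primary, the unirradiated ones by far the most, and Adm was 12.4-fold higher in the carbon group (log2 difference 3.63 ± 0.09). Mgarp encodes a mitochondrial protein induced by hypoxia and stood at -0.71 and -1.04 in the carbon group and at -4.43 and -4.46 in the unirradiated metastasis, a difference of 3.57 ± 0.22.

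The 250 bases before the transcription start of these 2 genes are shown because they lead the hypoxia list. They are RefSeq sequence of GRCm38.p6, 5′ to 3′. Capitals mark ACGTG or GCGTG on either strand, the core letters of the hypoxia response element.
Adm chr7:110627407-110627656, plus strand: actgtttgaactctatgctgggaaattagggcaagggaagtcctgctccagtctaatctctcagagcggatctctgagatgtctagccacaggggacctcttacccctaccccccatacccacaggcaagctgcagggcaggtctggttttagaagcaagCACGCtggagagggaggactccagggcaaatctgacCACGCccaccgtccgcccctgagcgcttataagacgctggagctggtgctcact
Mgarp chr3:51396548-51396797, minus strand: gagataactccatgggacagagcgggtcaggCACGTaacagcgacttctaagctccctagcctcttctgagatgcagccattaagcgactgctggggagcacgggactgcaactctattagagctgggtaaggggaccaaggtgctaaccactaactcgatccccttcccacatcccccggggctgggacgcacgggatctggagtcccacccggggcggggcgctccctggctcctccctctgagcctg
Adm holds 2 matches and Mgarp 1. Of the 23 genes of the hypoxia list with a promoter in the table, 20 held ACGTG or GCGTG on either strand (87.0%), against 38.6% of all 27025 promoters searched over the same length. Among the 15 of these that were called, 12 held it, and so did all of the others. A match is a description of the letters alone.

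Bnip3, whose product triggers the removal of mitochondria, had log2 ratios of -0.55 and -0.82 in the carbon group and -3.51 and -4.00 in the unirradiated metastasis (difference 3.07 ± 0.15). Ndrg1, a stress-induced gene of epithelial cells, stood at -0.37 and -0.41 in the carbon group against -3.39 and -3.47 in the unirradiated metastasis (3.04 ± 0.03). The carbon-group values of both genes were close to the primary, and the unirradiated values did not overlap with them. Egln3, a prolyl hydroxylase that marks the hypoxia-inducible factors for destruction and is itself induced by them, differed by 2.78 ± 0.08.

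Genes of acid export and pH control were among those that rose. Car9, the membrane carbonic anhydrase widely used as a hypoxia marker, had ratios of -0.28 and 0.13 in the carbon group and -2.76 and -2.71 in the unirradiated metastasis, and was 6.33-fold higher in the carbon group (2.66 ± 0.25). Car12, a second membrane carbonic anhydrase, differed by 1.42 ± 0.18. Slc16a3 exports lactate and differed by 1.63 ± 0.07.

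Vegfa, Slc2a1, Car12 and Aldoc were chosen as textbook members of the response after their values were seen. Vegfa, the main growth factor of blood vessels, had ratios of -0.39 and 0.01 in the carbon group and -1.96 and -1.69 in the unirradiated metastasis (1.64 ± 0.09), and its other measured probes gave between 1.01 and 1.03. The glucose transporter gene Slc2a1 stood at -0.83 and -1.25 in the carbon group against -2.30 and -2.93 (1.57 ± 0.14). Of 15 glycolysis genes measured, 5 rose and none fell, with a list median of 0.92. Pdk1, whose product inhibits pyruvate dehydrogenase in the mitochondrion, led them at 1.82 ± 0.04. Tpi1 (1.43 ± 0.06), Pgk1 (1.24 ± 0.14) and Aldoa (1.19 ± 0.16) encode enzymes of the pathway itself. Ldha, which makes lactate, had a difference of 0.82 ± 0.11 and was not called.

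The other members that rose ran from 1.08 (Bhlhe40, a clock-linked repressor) to 2.07 (Ero1a, an oxidase of protein folding), with Aldoc, an aldolase, at 2.06 and its other probe at 0.75, and the 12 members not called from -0.83 to 1.06. The hypoxia list was not uniform. Lox, which crosslinks collagen, fell by 1.29 on the log2 scale, with ratios of -0.19 and -0.74 in the carbon group and 1.07 and 0.58 in the unirradiated metastasis. Slc2a3, a glucose transporter that white blood cells and neurons also use, fell by 1.27, and Pfkfb4 had a difference of -0.83 ± 0.07 and was not called. Set against the primary, 3 of the 31 genes were at least 2-fold lower on both arrays of the carbon-group metastasis, and 18 of 31 on both arrays of the unirradiated metastasis. The list median over the primary was -0.20 in the carbon group and -1.29 in the unirradiated metastasis.

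Outside the list, Pthlh and Edn2 were among the 25 highest genes with a symbol. Pthlh, the parathyroid hormone-like hormone that squamous carcinomas often secrete, had ratios of -0.59 and -0.59 in the carbon group and -3.35 and -3.38 in the unirradiated metastasis (2.77 ± 0.02). Edn2, a vessel-constricting endothelin, differed by 2.44 ± 0.09. The vascular factors Apln (2.03 ± 0.04) and Pgf (1.92 ± 0.08) were the 2 of 20 measured angiogenic factor genes that rose, where 1.85% of all genes did, and none of that list fell. Its median was 0.02. Id4, an inhibitor of helix-loop-helix transcription factors, differed by 2.47 ± 0.16, and Aoc1, which breaks down histamine and polyamines, by 3.39 ± 0.03.

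**Figure D2:**
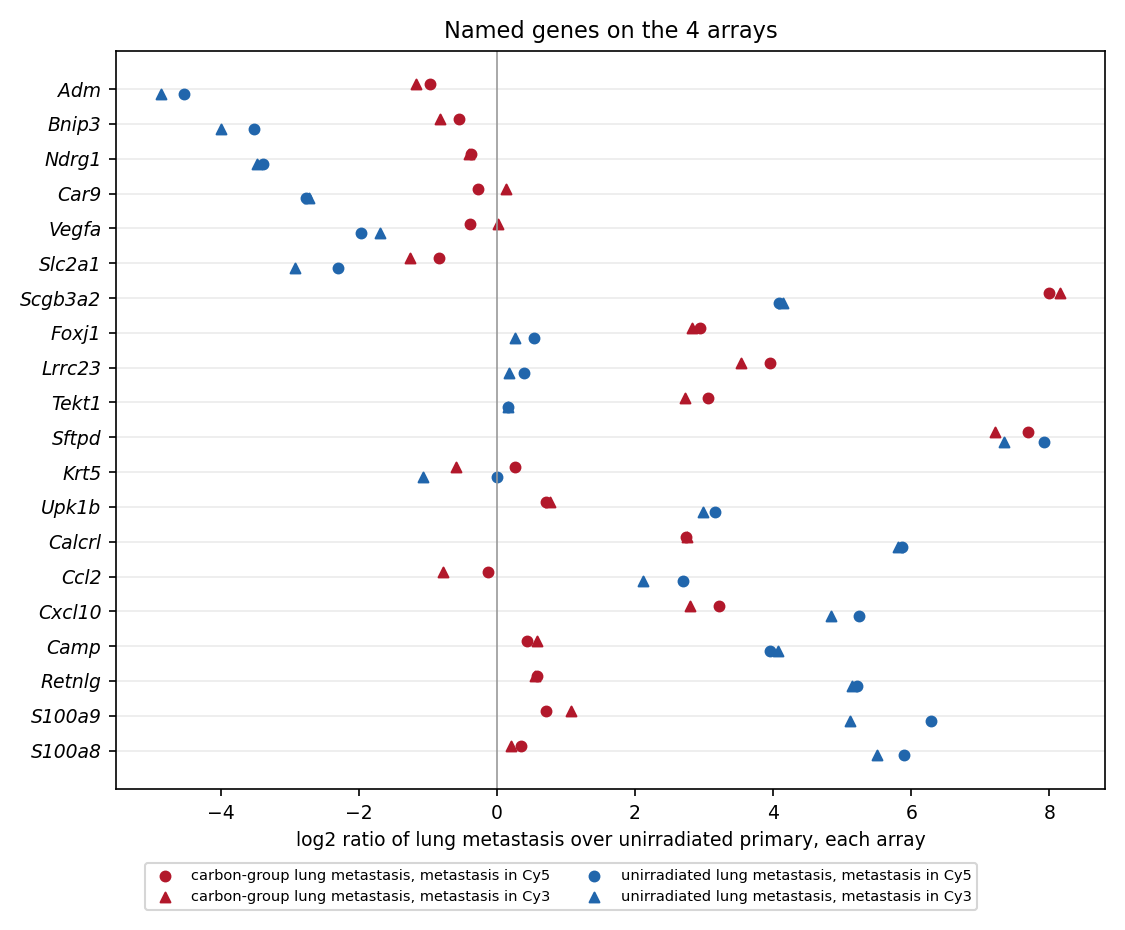
Log2 ratio of the lung metastasis over the unirradiated primary on each of the 4 arrays for 20 genes, with the carbon group in red above the unirradiated group in blue and the dye of the metastasis given by the marker. The hypoxia genes at the top run from -1.25 to 0.13 in the carbon group and lie lower in the unirradiated metastasis, while S100a8, at the bottom, stands at 0.35 and 0.21 in the carbon group against 5.90 and 5.51.

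Airway secretory genes were higher in the carbon-group metastasis. Of 18 measured, 9 rose and none fell, with a list median of 1.06. Scgb3a2, a small secreted protein of bronchial club cells, was the highest of all genes. Its ratios over the primary were 7.99 and 8.15 in the carbon group and 4.08 and 4.14 in the unirradiated metastasis, a 15.5-fold difference (3.96 ± 0.07). Both metastases thus lay far above the primary, and the carbon group farthest.

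Mucosal defence genes of the airway rose too. Bpifa1, an antimicrobial protein of airway fluid, had ratios of 2.69 and 2.63 in the carbon group and 0.44 and 0.49 in the unirradiated metastasis (2.19 ± 0.08). Agr2, which folds mucins, was not well above background on either unirradiated array. Through the primary it was 5.75-fold higher in the carbon group (2.52 ± 0.11), and in single channels at least 6.70-fold. Bpifb1, likewise dim there, was 4.81-fold higher through the primary and at least 6.89-fold in single channels. For Reg3g, an antibacterial lectin, the values were 3.62-fold and at least 3.91-fold. The single-channel values set the bright signal against the higher of the dim spot's own signal and the array's lowest signal well above background, and they are on another scale than the differences through the primary, which were smaller. Of the 18 airway secretory genes, 4 counted as measured only through the carbon group and 1 only through the unirradiated metastasis, and of the other 13, 5 rose.

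The primary channel was not steady for some of the brightest airway genes. Scgb1a1, the classical club cell secretoglobin, had ratios of 5.94 and 5.52 in the carbon group and 4.96 and 4.81 in the unirradiated metastasis, a difference of 0.85 ± 0.19 that was not called. The primary channel itself read 2.39 and 3.04 log2 units higher for Scgb1a1 on the carbon-group arrays, and the single-channel difference between the metastases was 3.57. Cyp2f2, a club cell cytochrome, differed by 1.27 ± 0.04 through the primary and by 3.33 in single channels, with the primary reading 2.00 and 2.11 higher on the carbon-group arrays. For Retnla, a resistin-like protein of lung epithelium and macrophages, the difference was 2.53 ± 0.20 through the primary and 6.77 in single channels, and the primary read 3.96 and 4.51 higher. The part of these primary readings in the results was not tested. Cxcl17, Dynlrb2 and Wfdc18 were the other genes read at least 2-fold higher in the primary in both dyes on the carbon-group arrays. Ngp, Cxcl9, Ubd, Inmt and an unnamed probe were read lower there.

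Genes of motile cilia were higher as well. Of 16 ciliated cell genes measured, 9 rose and none fell, and the list median was 1.20, the highest of the lists. Foxj1, the master transcription factor of motile cilia, had ratios of 2.94 and 2.82 in the carbon group and 0.54 and 0.26 in the unirradiated metastasis, and was 5.59-fold higher in the carbon group (2.48 ± 0.11). Lrrc23, a radial spoke protein of the beating axoneme, stood at 3.96 and 3.53 in the carbon group against 0.39 and 0.17 (3.47 ± 0.15). Of the 16, 5 counted as measured only through the carbon group, and of the other 11, 7 rose. The list's median over the primary was 1.79 in the carbon group and 0.14 in the unirradiated metastasis.

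The promoter of Lrrc23 is shown because it led the ciliated list. Capitals mark GTTGCC on either strand, a core of the site bound by the RFX factors that work with Foxj1 in ciliated cells, which was chosen after the values were seen.
Lrrc23 chr6:124779728-124779977, minus strand: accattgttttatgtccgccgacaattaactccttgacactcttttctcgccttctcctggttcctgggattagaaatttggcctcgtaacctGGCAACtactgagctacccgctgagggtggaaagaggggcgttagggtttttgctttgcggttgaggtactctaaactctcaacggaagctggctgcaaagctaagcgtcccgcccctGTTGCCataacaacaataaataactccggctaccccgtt
It holds 2 matches. GTTGCC on either strand was in 10 of the 16 ciliated list promoters in the table (62.5%), against 10.5% of all 27025.

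Other members that rose encode parts of the cilium. Tekt1, a tektin of the axonemal microtubules, had ratios of 3.06 and 2.72 in the carbon group and 0.16 and 0.16 in the unirradiated metastasis (2.73 ± 0.23). Dynlrb2, a light chain of dynein motors, differed by 3.31 ± 0.05, and Cfap126, a ciliary assembly protein, by 2.27 ± 0.03. Ccdc113 was not well above background on the unirradiated arrays and was 4.11-fold higher through the primary and at least 4.92-fold in single channels. Outside the list, Dnali1, an axonemal dynein chain also dim there, was 4.94-fold higher through the primary and at least 6.25-fold in single channels. Drc1, part of the dynein regulatory complex and also outside the list, stood at 2.60 and 2.51 in the carbon group against 0.01 and -0.02 (2.56 ± 0.05). A wider set of 51 measured axoneme genes, picked by symbol after the values were seen, held 17 that rose. Of these 51 genes, 19 counted as measured only through the carbon group, being well above background on both arrays there alone. Among the other 32 there were 9 that rose and none that fell.

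None of 19 measured alveolar epithelium genes was called, and their median was -0.01. Sftpd, a surfactant protein, had ratios of 7.68 and 7.21 in the carbon group and 7.92 and 7.35 in the unirradiated metastasis, so both metastases held it far above the primary at overlapping levels. Sftpc gave 5.87 and 4.20 in the carbon group against 5.74 and 3.95. The list's median over the primary was 2.73 in the carbon group and 2.55 in the unirradiated metastasis. The summed signal of the list was 811070 and 1350362 intensity units in the carbon group (Cy5 and Cy3) against 917230 and 1340909 in the unirradiated metastasis. In these samples a larger number of airway cells and more RNA of the airway genes per cell cannot be told apart. The cells that made this RNA were not identified.

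Keratinocyte genes are made by squamous tumour cells, though the lung's own epithelium also makes some of the list, such as Krt8, Krt18 and Epcam. None of 23 measured keratinocyte genes was called, and their median was 0.26. Krt5, the basal keratin of squamous epithelium, had ratios of 0.26 and -0.60 in the carbon group and 0.00 and -1.06 in the unirradiated metastasis (0.36 ± 0.15). Trp63, the transcription factor of basal squamous cells, differed by 0.26 ± 0.04 and Epcam by 0.49 ± 0.03. The muscle genes Acta1 and Myl1 lay far below the leg primary in both, with Acta1 at -3.37 and -3.76 in the carbon group against -3.49 and -3.86.

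**Figure D3:**
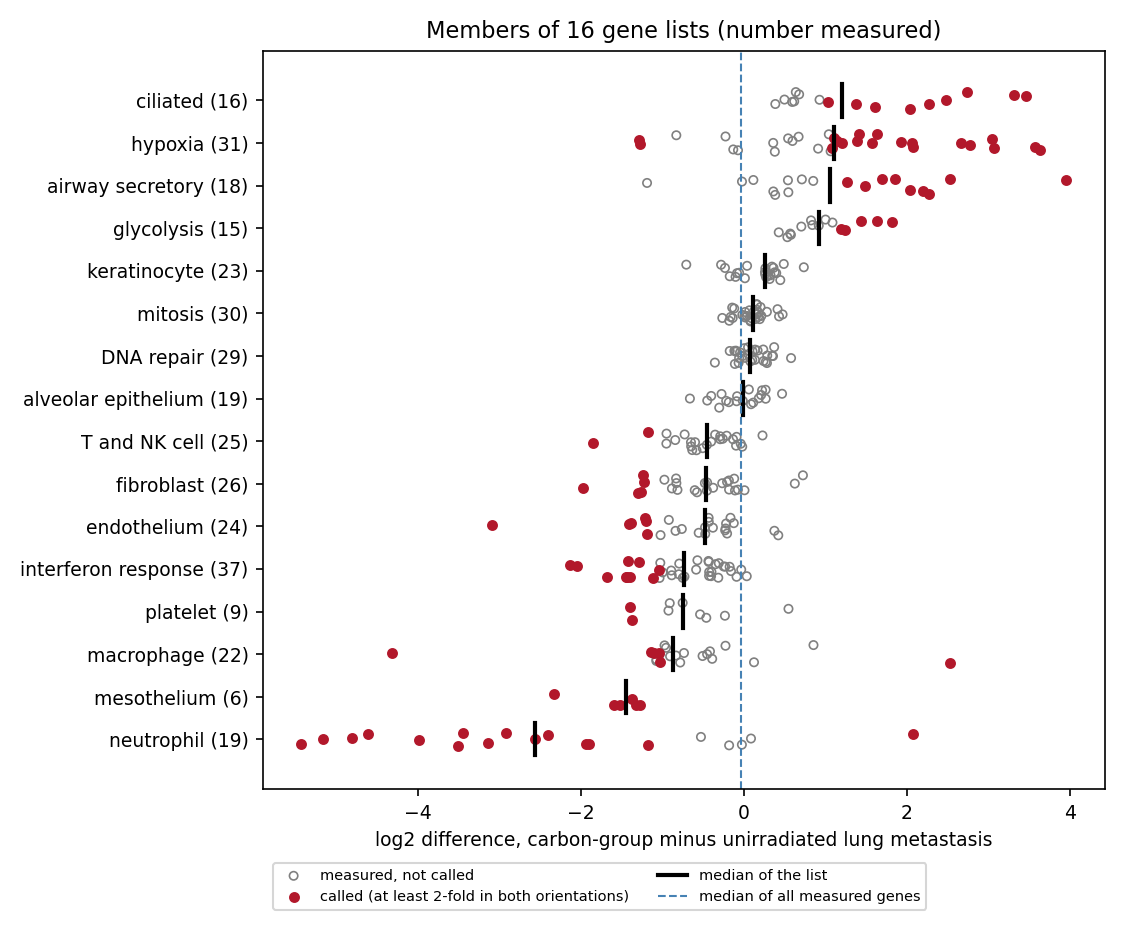
Log2 difference between carbon-group and unirradiated lung metastasis for every measured member of 16 gene lists, with called members filled, the list median as a black bar and the median of all genes (-0.03) as a dashed line. Ciliated, hypoxia and airway secretory lists have medians of 1.20, 1.11 and 1.06, and the neutrophil list has a median of -2.56.

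Neutrophil genes were far lower in the carbon-group metastasis. Of 19 measured, 14 fell and 1 rose, and the list median was -2.56. S100a8, a subunit of calprotectin, which fills neutrophil cytoplasm, had ratios over the primary of 0.35 and 0.21 in the carbon group and 5.90 and 5.51 in the unirradiated metastasis. It was the lowest of all genes, 42.9-fold lower in the carbon group (-5.42 ± 0.18). Its partner S100a9 stood at 0.72 and 1.07 in the carbon group against 6.29 and 5.11 (-4.81 ± 1.09). The primary reading of S100a9 was 2.74 log2 units higher in Cy3 and 0.35 higher in Cy5 on the carbon-group arrays. Without the arrays with the metastasis in Cy5, its difference was -4.04.

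The promoters of the 3 lowest genes with a gene symbol of their own are shown because they head the neutrophil list. Capitals mark TATAAA on either strand.
S100a8 chr3:90668821-90669070, plus strand: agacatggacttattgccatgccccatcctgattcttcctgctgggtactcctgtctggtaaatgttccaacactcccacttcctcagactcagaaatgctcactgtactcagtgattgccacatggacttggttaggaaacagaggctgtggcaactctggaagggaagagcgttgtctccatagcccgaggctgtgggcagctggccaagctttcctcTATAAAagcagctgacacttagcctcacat
S100a9 chr3:90695722-90695971, minus strand: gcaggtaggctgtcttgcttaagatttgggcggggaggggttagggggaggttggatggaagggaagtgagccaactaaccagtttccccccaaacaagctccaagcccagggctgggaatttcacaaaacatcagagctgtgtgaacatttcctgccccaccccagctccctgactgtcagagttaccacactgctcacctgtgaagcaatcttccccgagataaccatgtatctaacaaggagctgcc
Stfa2l1 chr16:36156561-36156810, plus strand: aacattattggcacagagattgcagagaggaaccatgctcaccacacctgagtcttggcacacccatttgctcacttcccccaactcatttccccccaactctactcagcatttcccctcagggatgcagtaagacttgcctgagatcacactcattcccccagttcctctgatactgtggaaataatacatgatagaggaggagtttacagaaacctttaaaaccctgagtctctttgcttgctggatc
S100a8 holds 1 match, and the other 2 hold none in this window. TATAAA was in 2 of 18 promoters of the neutrophil list (11.1%), against 13.0% of all promoters.

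Stefin genes were among the 25 lowest. These cysteine protease inhibitors lie in a cluster of near-identical mouse genes, so the probes may share signal. Stfa2l1 had ratios of -0.86 and -1.43 in the carbon group and 4.39 and 3.64 in the unirradiated metastasis (-5.16 ± 0.13). Csta2 (-4.75 ± 0.10), Stfa2 (-4.46 ± 0.12), Cstdc6 (-4.46 ± 0.03) and Stfa3 (-3.99 ± 0.11) fell with it.

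Granule and receptor genes of neutrophils fell. Camp and Ngp encode proteins of the secondary granules, which are filled in the bone marrow. Camp had ratios of 0.43 and 0.58 in the carbon group and 3.95 and 4.07 in the unirradiated metastasis (-3.51 ± 0.02), and Ngp differed by -2.91 ± 0.13. The collagenase gene Mmp8 stood at 1.25 and 1.39 in the carbon group against 4.75 and 4.78 (-3.44 ± 0.09). Retnlg, a resistin-like gene of neutrophils, differed by -4.61 ± 0.02. The chemokine receptor gene Cxcr2, which draws neutrophils out of blood, differed by -3.13 ± 0.59, and its other measured probe gave -1.72. Csf3r, the receptor for the neutrophil growth factor, differed by -1.93 ± 0.02.

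The exception among called members was Ltf, lactoferrin, a secondary granule protein that glandular epithelia also secrete. It had ratios of 3.27 and 3.29 in the carbon group and 1.18 and 1.24 in the unirradiated metastasis (2.07 ± 0.03), and its other measured probe gave 2.10. Lcn2, which epithelia also make, had a difference of -0.53 ± 0.11 and was not called. Against the primary, 6 of the 19 neutrophil genes were at least 2-fold higher on both arrays of the carbon-group metastasis, and 18 of 19 on both arrays of the unirradiated metastasis.

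Macrophage genes were lower to a smaller extent. Of 22 measured, 5 fell and 1, Retnla, rose, and the median was -0.87. Chil3, a chitinase-like protein of alveolar macrophages that immature neutrophils also make, had ratios of 1.44 and 1.59 in the carbon group and 5.97 and 5.68 in the unirradiated metastasis (-4.31 ± 0.32). Adgre1, which encodes the F4/80 surface marker, differed by -1.04 ± 0.05, and its other measured probe gave -0.48. C1qa, Cd14 and Fcgr1 differed by -1.03 ± 0.03, -1.10 ± 0.13 and -1.14 ± 0.02. Cd68, a lysosomal marker of macrophages, differed by -0.45 ± 0.01 and was not called.

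Chemokines that recruit monocytes were among the genes that fell. The list held 30 measured chemokine and cytokine genes, of which 5 fell and none rose (median -0.39). Ccl2, the main attractant of monocytes, had ratios of -0.12 and -0.78 in the carbon group and 2.70 and 2.11 in the unirradiated metastasis, and was 7.24-fold lower in the carbon group (-2.86 ± 0.05). Its neighbours in function Ccl7 (-1.92 ± 0.06) and Ccl12 (-1.54 ± 0.05) fell too. Cxcl12, which holds cells that bear its receptor in tissue, differed by -1.35 ± 0.10, although its other measured probe gave -0.15. Cxcl3, a ligand of Cxcr2, differed by -1.14 ± 0.08.

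Interferon-induced genes were lower. Of 37 measured, 10 fell and none rose, and the median was -0.73. The T cell attractants Cxcl9, Cxcl10 and Cxcl11 are induced by interferon gamma. Cxcl10 had ratios of 3.21 and 2.79 in the carbon group and 5.25 and 4.84 in the unirradiated metastasis (-2.04 ± 0.01), and Cxcl11 stood at 1.72 and 1.56 in the carbon group against 3.92 and 3.62 (-2.13 ± 0.10). All of these values were above the primary, those of the carbon group by less. Cxcl9 differed by -1.42 ± 0.12 through the primary and by -2.90 in single channels, and the primary read 1.33 and 1.63 log2 units lower for it on the carbon-group arrays. Gbp6, a guanylate-binding protein of a family with near-identical copies, differed by -1.68 ± 0.08. The antiviral genes of the list, chosen after their values were seen, did not move as one. Ifit2 fell by 1.04 on the log2 scale, while Ifit3 stood at -0.09 ± 0.11 and Mx1 at 0.04 ± 0.11, neither called.

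Ifng, interferon gamma of T and NK cells, had ratios of 1.13 and 0.94 in the carbon group and 2.93 and 2.85 in the unirradiated metastasis (-1.85 ± 0.08). Of 25 measured T and NK cell genes, Ifng and Cd8a (-1.18 ± 0.07) were the 2 that fell, where 2.38% of all genes did. None rose, and the median was -0.45. Of these 25, 4 counted as measured only through the unirradiated metastasis, being well above background on both arrays there alone. Of the other 21, 2 fell. Cd3g, a chain of the T cell receptor complex, had a difference of -0.95 ± 0.15 and was not called. None of 17 MHC class I genes was called, with a median of -0.48, and none of 10 MHC class II genes, with a median of -0.07.

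Of 6 mesothelial genes measured, all fell, with a median of -1.44. Wt1 and Lrrn4 counted as measured only through the unirradiated metastasis, where they are high, so the count rests on the other 4. Upk1b, a uroplakin made by the lung's outer lining, had ratios of 0.72 and 0.76 in the carbon group and 3.17 and 2.98 in the unirradiated metastasis (-2.33 ± 0.16). Msln, mesothelin itself, stood at 0.61 and 0.81 in the carbon group against 1.97 and 2.19 (-1.37 ± 0.01). The transcription factor gene Wt1 was well above background in the unirradiated metastasis but not in the carbon group, and was 2.41-fold lower in the carbon group through the primary and at least 2.53-fold lower in single channels. Lrrn4 had a difference of -1.32 ± 0.03 through the primary and was at least 2.52-fold lower in single channels.

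Among 24 endothelial genes measured, 6 fell, none rose and the median was -0.47. Calcrl, part of the receptor for adrenomedullin, had ratios of 2.74 and 2.75 in the carbon group and 5.86 and 5.81 in the unirradiated metastasis (-3.09 ± 0.04), but its other measured probe gave -0.98. Its partner Ramp2 stood at 1.75 and 1.75 in the carbon group against 2.96 and 2.92 (-1.18 ± 0.03). Vwf, the clotting factor of vessel walls, differed by -1.21 ± 0.02, and Lyve1, of lymphatic vessels, by -1.41 ± 0.02. The general markers Pecam1 (-0.48 ± 0.12) and Cdh5 (-0.16 ± 0.04) were not called.

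Tmem100, an endothelial gene of the lung, had ratios of 0.71 and 0.96 in the carbon group and 4.16 and 4.17 in the unirradiated metastasis (-3.33 ± 0.17), with another probe at -0.72. Hpgd, which inactivates prostaglandins, differed by -3.08 ± 0.16. Among 26 fibroblast genes measured, 5 fell, none rose and the median was -0.47. Pi16 of adventitial fibroblasts differed by -1.97 ± 0.10 and Pdgfra by -1.30 ± 0.03, the matrix genes Col6a1, Col6a2 and Lum by -1.26, -1.24 and -1.23, while Col1a1 stood at -0.21 ± 0.07. Of 9 measured platelet genes, Gp9 (-1.40 ± 0.30) and Treml1 (-1.38 ± 0.04) fell, and the median was -0.75. Of these 9, 3 counted as measured only through the unirradiated metastasis, being well above background on both arrays there alone. Of the other 6, 2 fell.

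None of 30 mitosis genes and none of 29 DNA repair genes was called, with medians of 0.11 and 0.08. Among 30 targets of p53, a transcription factor that DNA damage activates, only the death receptor gene Fas was called (-1.10 ± 0.06), with a list median of -0.08. Among 29 DNA replication genes only Ccne2 was called (-1.12 ± 0.07). Over all measured genes 4.23% were called, and the counts in these 4 lists are near that share. Of 26 immediate early genes, which respond within minutes to stimuli, Egr1 (1.57 ± 0.04) and Fos (1.23 ± 0.07) rose and none fell. The heat shock gene Hspa1a rose by 2.12 ± 0.07, the only one of 14 in its list, and its other measured probes gave between 0.93 and 2.01.

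Skin-type differentiation genes were called in both directions. Alox12e, a lipoxygenase of the epidermis, had ratios of 3.85 and 3.64 in the carbon group and 1.49 and 1.31 in the unirradiated metastasis (2.34 ± 0.01). Crct1, a cornified envelope gene, fell by 1.24. Cstdc6, counted in this list too, was described with the stefins. The list of 22 measured genes had a median of -0.22, with 1 gene that rose and 2 that fell, where 1.85% and 2.38% of all genes did.

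The gamma-group metastasis was set against the same unirradiated metastasis. Both comparisons share the unirradiated metastasis, so the likeness of their values is no separate evidence, and the values are given side by side. Of 17332 genes measured, 319 rose (1.84%) and 243 fell (1.4%) in the gamma group, 3.24% in all. The hypoxia list had a median of 1.11 in the carbon group and 0.72 in the gamma group, each against the unirradiated metastasis, and the neutrophil list -2.56 and -1.64. The interferon list had -0.73 and -0.78, the mesothelium list -1.44 and -1.42 and the ciliated list 1.20 and 0.97.

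**Figure D4:**
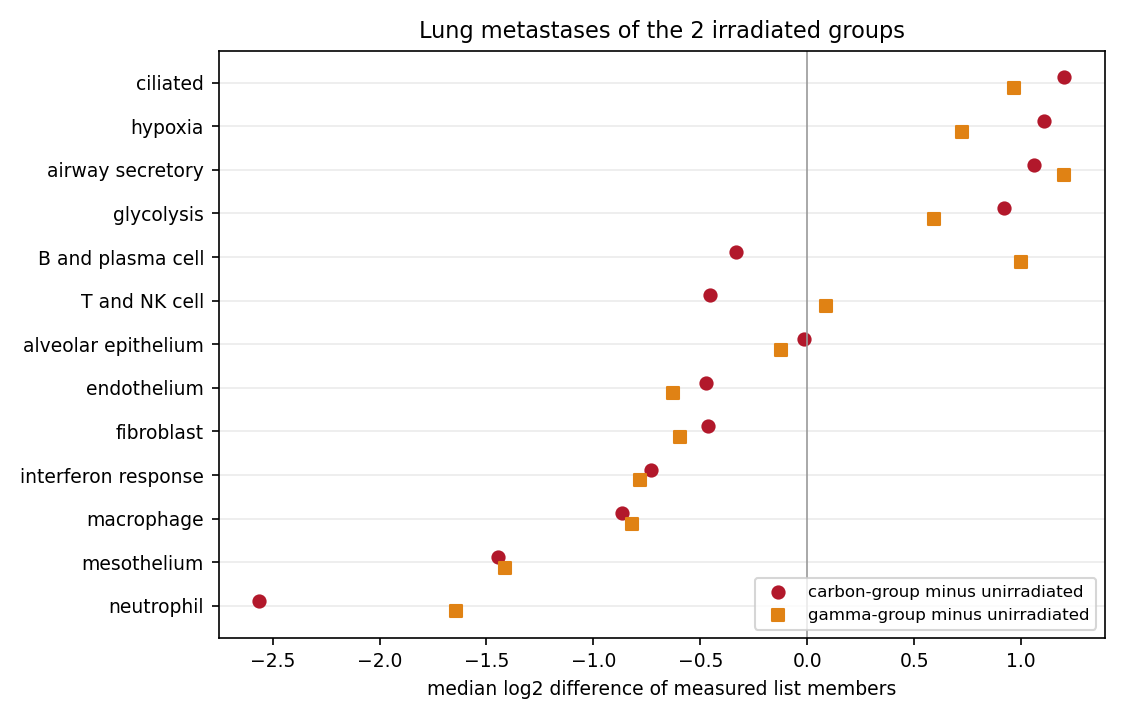
Median log2 difference of each gene list against the unirradiated metastasis, with the carbon group (circle) above the gamma group (square). The B and plasma cell list lies at -0.33 in the carbon group and at 1.00 in the gamma group, and the neutrophil list at -2.56 and -1.64.

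The carbon group and the gamma group were compared through the primary as well, and the gamma arrays lay on the slide of the unirradiated ones, so slide and group cannot be told apart here either. Of 17118 genes measured in either, 41 were at least 2-fold higher (0.24%) and 182 at least 2-fold lower (1.06%) in the carbon group in both orientations, 1.3% in all. Of the hypoxia list 4 members were higher and none lower in the carbon group, with Mgarp at 1.38, Car9 at 1.35, Ndrg1 at 1.24 and Bnip3 at 1.19. Adm (0.46) and Egln3 (0.12) were not called between the 2 irradiated groups. Of the neutrophil list 7 of 19 were lower in the carbon group than in the gamma group and none higher, with S100a8 at -3.19 and Retnlg at -2.70.

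Of 22 B and plasma cell genes measured, 16 were lower in the carbon group than in the gamma group and none higher, with a median of -1.29. Some of the 22, such as Cr2 (-2.57) and Cd79a (-0.51), counted as measured only through the gamma group, being well above background on both arrays there alone. How many did so was not counted, so the count and median rest in part on this filter. Ms4a1, which encodes CD20 of B cells, differed by -3.75 between the carbon group and the gamma group. Against the unirradiated metastasis Ms4a1 fell by 1.39 in the carbon group, where it had ratios over the primary of 1.60 and 1.81 against 3.01 and 3.18. Of 20 B cell genes measured in that comparison, Ms4a1 alone was called, and 4 of the 20 counted as measured only through the unirradiated metastasis. Among the airway genes, Reg3g (-3.79), Bpifa1 (-2.04) and Agr2 (-1.21) were lower in the carbon group than in the gamma group, and no member of the ciliated list was called. Hspa1a was 2.41 and Fos 1.23 log2 units higher in the carbon group than in the gamma group.

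Carbon-irradiated primary tumour, taken at 1 week, was hybridised on another slide against RNA with the same unirradiated primary label. Of 15306 genes measured, 608 rose (3.97%) and 168 fell (1.1%) in the irradiated primary, 5.07% in all. The metastasis arrays carry that label too, but whether the RNA preparation was the same is not given in the sources used here. Site, week and slide cannot be told apart between this comparison and that of the metastases. All 37 measured interferon genes rose there, with a median of 3.55, while the median was -0.73 in the metastasis. The hypoxia list had a median of -0.02 in the irradiated primary, with 2 members that rose and 2 that fell. Adm stood at -0.70 and Car9 at 0.41 in the irradiated primary, neither called. Ero1a, chosen after its values were seen, fell by 1.96 in the irradiated primary and was 2.07 ± 0.20 higher in the carbon-group metastasis than in the unirradiated one. S100a8 fell by 1.65 in the irradiated primary. Of 8 airway secretory genes measured in the irradiated primary, 6 rose and none fell, with a median of 2.23. How many counted as measured only through the irradiated primary was not counted. Cyp2f2 rose by 4.54, Aldh1a1 by 4.09 and Agr2 by 2.03, while Scgb3a2 stood at -0.07. Wfdc18, outside that list, rose by 4.45.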

How the data were processed

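Arrays were two-colour Agilent mouse arrays. The deposited intensity values are each spot's mean brightness and local background in Cy5 and Cy3, from Agilent Feature Extraction 9.1.3.1, per the file headers, and are not normalized. The deposited log10 ratio (Cy5 over Cy3), which the authors' series table repeats within 0.005, served as an alternative. Intensities were corrected with normexp (offset 50, which pulls dim ratios toward 0) and loess in R 4.3.3 with limma 3.58.1; later steps used Python 3.11.15. Between 34 and 58 outlier spots per array were left out. Probes (41174) were named through RefSeq GRCm38.p6, and 8455 kept the file's name. The brightest probe stood for a gene. A gene was measured if well above background on both arrays of at least 1 metastasis. Direction came from the labelled dyes.

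The gene members, lists and rules were chosen with earlier results of these data known. Named genes were the 25 highest and 25 lowest called, up to 6 called per list and direction, up to 4 bright uncalled members per list, defining cell markers and the 10 largest bounds per direction. Vegfa, Slc2a1, Car12, Aldoc, Bhlhe40, Csf3r, Cyp2f2, Ifit2, Ifit3, Mx1, Pfkfb4, Ero1a, Igtp, Ifi47 and Gbp3 lay outside this rule and were chosen after their values were seen. Alternatives were another offset, the deposited ratios, other centring and scaling, single channels, other filters, all probes, 1 orientation and other fold thresholds.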

Additional observations from a re-analysis of the deposited data

Results flagged for a closer look

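Some genes were at least 2-fold lower in the carbon-group than in the unirradiated lung metastasis and at least 2-fold higher in the carbon-irradiated than in the unirradiated primary, in both dye orientations each. The difference between the 2 sites was not tested, since each group was 1 RNA. The primary was taken a week earlier from other mice, and the arrays of the irradiated primary lay on another slide. Only genes picked by the naming rule, or chosen after their values were seen, were searched for this pattern. The rule takes in members of the interferon list, and Igtp, Ifi47, Gbp3 and Ifit2 were chosen after their values were seen. Most of the genes found are interferon-induced, but because of this selection their share does not describe all called genes. Igtp, an interferon-induced GTPase, differed by -1.40 in the metastasis and by 6.94 in the primary, its relative Ifi47 by -1.28 and 5.25, Gbp3 by -1.12 and 5.52, and the antiviral gene Ifit2 by -1.04 and 2.45. Cxcl10 differed by -2.04 in the metastasis and by 5.52 in the primary, Cxcl9 by -1.42 and 5.16, and Cxcl11 by -2.13 and 3.44. The guanylate-binding protein genes Gbp6 (-1.68 and 4.79) and Gbp8 (-1.43 and 3.55) and the apolipoprotein L gene Apol6 (-1.45 and 4.0) behaved alike. Ifng itself differed by -1.85 in the metastasis and by 2.37 in the primary, and Cd8a by -1.18 and 1.47. The complement gene C2 gave -1.38 and 2.19, the Fc receptor gene Fcgr1 -1.14 and 1.11, and the cornified envelope gene Crct1 -1.24 and 1.45. Ero1a went the other way, at 2.07 in the metastasis and -1.96 in the primary.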

How the results depend on the processing

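No paired analysis was possible because each group is 1 RNA, measured in 2 dye orientations. All 137 called named genes kept their sign wherever an alternative gave a value, and the medians of the hypoxia, glycolysis, ciliated, airway secretory, neutrophil, macrophage, mesothelium, interferon and endothelium lists kept theirs under the 11 alternatives to normalization, filter, probe and dye. For the named genes part of this was fixed beforehand. A call requires the same sign in both orientations, so 1 orientation alone could not turn it. The filters leave a gene's value unchanged, and the series table repeats the deposited log ratios. The count of called genes moved more. It was 1086 (532 higher) with offset 0, 1550 (827 higher, 723 lower) with the deposited log ratios and 1547 (827 higher, 720 lower) with the series table. At 1.5-fold it was 2006 (883 higher, 1123 lower), and at 3-fold 200 (94 higher, 106 lower). The share of calls that were higher was 43.8%, and 53.4% with the deposited log ratios. Ciliated genes higher numbered 14 with the deposited log ratios and 14 with the series table, and airway secretory genes higher numbered 5 where both metastases had to be well above background. Glycolysis genes higher numbered 3 with median centring, 11 at 1.5-fold and 1 at 3-fold. Endothelium genes lower numbered 3 with the mean of all probes, 10 at 1.5-fold and 1 at 3-fold. Interferon genes lower numbered 7 with the deposited log ratios, 15 with scaling between arrays, 18 at 1.5-fold and 3 at 3-fold. Hypoxia genes higher numbered 12 with the mean of all probes, 14 with median centring, 19 with the deposited log ratios, 21 at 1.5-fold and 9 at 3-fold. Mesothelium genes lower numbered 1 at 3-fold. Fewer or more genes at another threshold follow from the threshold. The other causes were not tested. The offset holds dim spots near 0, so differences of dim genes are understated.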

Other observations

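Clock genes were looked at after the values were seen. Of 16 measured, 3 were called higher in the carbon-group metastasis and none lower, and the median was 0.62. Dbp, a transcription factor driven directly by the circadian clock, had log2 ratios over the primary of 0.21 and 0.43 in the carbon group and -1.88 and -1.89 in the unirradiated metastasis (difference 2.20). Nr1d1, a repressor arm of the clock, differed by 1.73, although its other measured probe gave 0.25, and Tef by 1.24. Arntl, which drives them, stood at -0.43 and was not called. In the gamma group Dbp differed by 1.65 and Nr1d1 by 1.14 from the unirradiated metastasis. The hour of day at which tissue was taken is not given in the sources used here. Of 9 measured genes induced by glucocorticoids, also chosen after the values were seen, Fkbp5 (-1.57) and Tsc22d3 (-1.13) fell and none rose.

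A few genes with no known place in lung or squamous tumour were called higher in the carbon group against both the unirradiated and the gamma-group metastasis, and were singled out after their values were seen. Krtap17-1, a hair keratin-associated protein gene, had ratios of 2.65 and 2.63 in the carbon group and 0.67 and 0.73 in the unirradiated metastasis, and differed by 2.02 from the gamma group. The olfactory receptor gene Olfr430 differed by 2.28 from the unirradiated metastasis and by 2.05 from the gamma group, and the potassium channel gene Kcna7 by 2.30 and 2.12.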
